A study of Homo sapiens with 12 samples.

Results

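KO5 is one of the PRDM1 knockout derivatives of RKO, an established human colon carcinoma cell line, and it was compared here with the wild-type RKO cells it was made from. The comparison used 4 of the 12 RNA-sequencing libraries of the study, the 2 libraries titled KO5 and the 2 titled wild type, and described 12858 genes with enough reads of 26364 listed. Members were chosen by the library titles alone. PRDM1 had been knocked out with CRISPR/Cas9, a nuclease directed to a gene by a guide RNA. KO2 is another PRDM1 knockout derivative, and a GFP derivative overexpressed green fluorescent protein. All 4 of these groups were RKO cells grown in McCoy's 5A medium with serum, with 2 libraries each, and 4 further libraries of RKO cells overexpressing PRDM1α or PRDM1β entered the fit of the spread. The labels do not give the guide, the edited site, or whether KO5 is a single clone. Nothing in them states that the libraries of 1 group are different cultures, so p-values reflect only how far those libraries differ, which may be technical.

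PRDM1 encodes a zinc finger transcription factor, best known as a repressor that shuts down the B cell program while plasma cells form. It also acts in the skin, the germ line and the fetal intestine, where it holds back adult epithelial genes. It binds DNA through its zinc fingers, at sites built around the letters GAAAGT, and recruits enzymes that modify histones. RKO cells lack the APC mutation of most colon cancer lines.

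Library depth was 36503307 and 55961821 gene counts in wild type and 30031390 and 28575682 in KO5. PRDM1 itself had 4 and 4 counts in wild type and 1 and 1 in KO5, a ratio of KO5 to wild type of 0.394 with a 95% exact binomial interval of 0.0408 to 1.98. This interval covers counting error only, and at this depth a loss of PRDM1 transcripts was not detectable. Gene counts do not test the edited site. Of 8 colon epithelial markers, the adhesion genes EPCAM and CDH1 had 0 counts in all 4 libraries, while the keratins KRT8 and KRT18 were abundant, and their calls in KO5 are given with the other lists. The summed markers stood at 970.3 and 986.4 CPM in wild type and 1203 and 1133 CPM in KO5, nearly all of it KRT8 and KRT18. KRT19, VIL1 and KRT20 had at most 2 counts in any of the 4 libraries. CDX2, the last of the 8, had 513 and 849 counts in wild type and 408 and 400 in KO5. Its change of log2 -0.064 was not called. CPM is a gene's count for each 1000000 gene counts of a library, with totals adjusted by edgeR's TMM factors. The summed levels of 11 fibroblast markers were 10.9 and 13.1 CPM in wild type and 14.5 and 14.5 CPM in KO5, with COL3A1, DCN and FAP at 0. Those of 11 leukocyte markers were 19.1 and 18.05 CPM against 12.9 and 12.2 CPM, nearly all of it CD68, with 7 of the 11 at 0. The 7 endothelial markers summed to 9.82 and 9.44 CPM against 8.80 and 7.74 CPM, nearly all of it ESAM, with 4 at 0, PECAM1 and CDH5 among them. In such bulk samples, fewer cells of a type and less RNA per cell cannot be told apart, and the part of other cell types in the results was not tested.

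KO5 differed from wild type in many genes, mostly by small amounts. A gene passed when edgeR's quasi-likelihood test, fitted to all 12 libraries, gave a Benjamini-Hochberg adjusted p under 0.05. By that rule 6578 genes (51.2%) passed, of which 3244 (25.2%) were higher and 3334 (25.9%) lower in KO5. Of these, 66.4% changed by less than 1.25-fold. Changes of at least 2-fold were found in 123 genes (0.957%) that were higher and 198 (1.54%) that were lower. Both KO5 libraries lay above both wild-type libraries in 4714 genes (36.7%) and below both in 4889 (38%). Fold changes are given on the log2 scale ± standard error with n = 2 libraries per group.

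**Figure D1:**
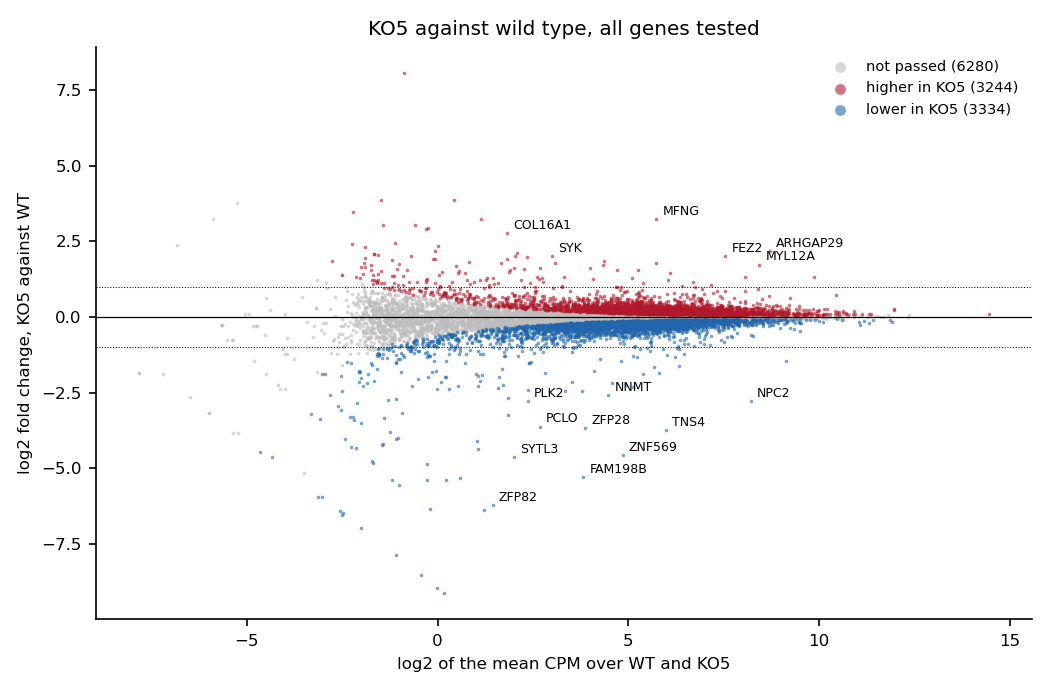
Each point is a gene, with the log2 of its mean CPM over the 4 libraries on the x axis and the log2 fold change of KO5 against wild type on the y axis. Red and blue points passed the test, dotted lines mark 2-fold, and the labelled genes are among the 15 largest rises and falls. Most of the 6578 genes that passed lie between the dotted lines, and 5 genes with no count in either group are not drawn.

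The direction of the changes varied with the base composition of the transcripts. The GC content of a transcript is the percentage of its bases that are G or C, and it was known for 12111 of the 12858 genes (94.2%). Across these genes the log2 fold change of KO5 against wild type fell with GC content, with a Spearman correlation of -0.519 and a Pearson correlation of -0.284. Genes are not independent replicates, and the correlation is a description. The genes were split by GC content into 5 bins of about equal number. In the bin with the lowest, 30.2% to 41.2%, the median log2 fold change was 0.136, and 53.2% of genes were higher and 7.02% lower. In the bin with the highest, 58.7% to 76.25%, the median was -0.227, and 2.85% were higher and 60.0% lower. The same correlation was -0.072 for KO2 against wild type, -0.666 for GFP against wild type, and -0.419 for KO5 against KO2. GFP and KO5 were both compared with the same wild-type libraries.

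Single KO5 libraries against single wild-type libraries gave correlations of -0.413 to -0.551. Between the 2 wild-type libraries it was -0.278, and between the 2 KO5 libraries 0.271. Transcript length correlated with the fold change at 0.175. When a smooth trend on GC content was removed from each library, the correlation was -0.016, and 3041 genes (23.7%) were higher and 2218 (17.2%) lower. Of the 6578 genes, 3899 (59.3%) passed again in the same direction, 2556 no longer passed and 123 passed in the opposite direction, while 1237 genes passed that had not before. The higher share of the calls moved from 49.3% to 57.8%. Of the large changes, 119 of the 123 genes at least 2-fold higher and 182 of the 198 at least 2-fold lower passed again in the same direction. What the trend comes from was not tested.

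**Figure D2:**
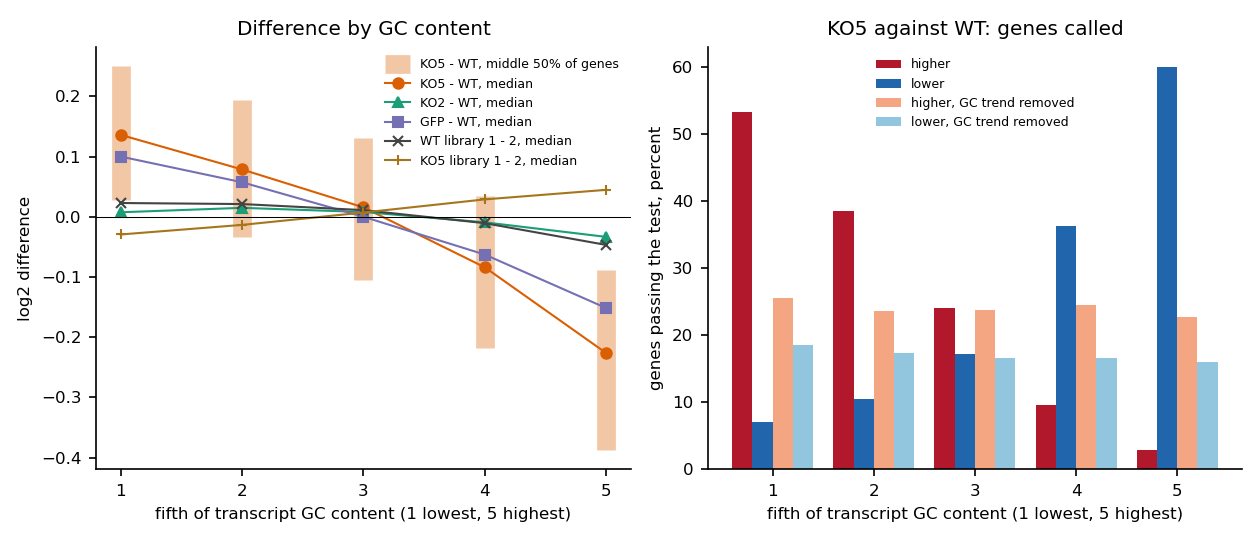
The left panel gives the median log2 difference in each of 5 bins of transcript GC content for KO5, KO2 and GFP against wild type and for the 2 libraries within a group, and bars span the middle 50% of genes for KO5. The right panel gives the percentage of genes called higher or lower in KO5 before and after the GC trend was removed; higher calls go from 53.2% in the first bin to 2.85% in the last before removal.

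Among the largest rises were signalling genes. MFNG, the Manic Fringe glycosyltransferase that modifies Notch receptors, stood at 10.01 and 10.3 CPM in wild type and 97.1 and 94.6 CPM in KO5. Both KO5 libraries were about as high as each other and well above both wild-type libraries, and the change was log2 3.24 ± 0.062 (adjusted p = 7.9e-42). In KO2 the gene was at 0.967 and 0.915 CPM, below wild type. SYK, a tyrosine kinase of immune receptor signalling, was at 3.24 and 3.03 CPM in wild type and 12.8 and 12.7 CPM in KO5, a change of log2 2.03 ± 0.12 (adjusted p = 3.4e-20). KO2 held 0.207 and 0.200 CPM of SYK, so that wild type lay between the knockout derivatives. TNFRSF14, a receptor of the tumour necrosis factor family, rose from 1.63 and 1.61 CPM to 7.05 and 5.98 CPM (log2 2.01 ± 0.16, adjusted p = 1.0e-15), against 0.161 and 0.114 CPM in KO2. PTGES, the enzyme that makes prostaglandin E, stood at 3.54 and 3.99 CPM in wild type and 13.3 and 12.98 CPM in KO5. Its change was log2 1.79 ± 0.11 (adjusted p = 1.3e-18), and KO2 had 0.138 and 0.143 CPM. The rule that picked these 4 genes required no overlap between KO5 and wild type.

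The promoter of PTGES is shown because it is the one among those found for the 15 largest rises that holds the letters GAAAGT. The sequence is RefSeq's, in build GRCh38.p14, from 250 bases before the start of the gene to 50 after it, at chr9:129752993-129753292 on the minus strand. Capitals mark GAAAGT, whose first base lies 235 bases before the start.
PTGES: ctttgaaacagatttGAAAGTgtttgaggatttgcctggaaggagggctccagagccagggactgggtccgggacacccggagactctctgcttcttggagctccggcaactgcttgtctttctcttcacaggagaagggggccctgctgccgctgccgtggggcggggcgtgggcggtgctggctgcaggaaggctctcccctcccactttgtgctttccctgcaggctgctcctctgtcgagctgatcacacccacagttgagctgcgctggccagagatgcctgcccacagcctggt
The promoters of COL16A1, FEZ2, TNFRSF14 and HAPLN3 were also found and held neither GAAAGT nor its reverse complement ACTTTC, which says only that these letters are not in those windows. A match is a description, not a site of binding. Of 6726 tested genes with one listed promoter, 652 (9.69%) held the letters on either strand. The share was 11.6% (95% Clopper-Pearson interval 10.1 to 13.1) among genes higher in KO5 and 7.71% (6.504 to 9.06) among genes lower. Among genes at least 2-fold higher it was 7 of 45 (15.6%, 6.49 to 29.5), and among those at least 2-fold lower 5 of 84 (5.95%, 1.96 to 13.3), which was 9.375% with the GC trend removed. Base composition moved with these shares, since the median GC content of the promoters was 64.3% for higher genes and 68.3% for lower genes, and its part was not tested.

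Genes of the cell surface matrix and the cytoskeleton were also among the rises. COL16A1, a collagen chain of fibril-associated type, was at 0.870 and 0.917 CPM in wild type and 5.66 and 6.65 CPM in KO5 (log2 2.77 ± 0.2, adjusted p = 8.2e-18). KO2 held 0 and 2 counts of it. HAPLN3, a link protein of the hyaluronan matrix, was at 1.88 and 2.13 CPM in wild type and 8.19 and 8.02 CPM in KO5, and at 1.84 and 1.94 CPM in KO2, which overlapped wild type. ARHGAP29, which switches off the GTPase RhoA, was one of the abundant transcripts that rose, from 151 and 149.6 CPM to 679 and 686 CPM (log2 2.18 ± 0.033, adjusted p = 3.3e-45). MYL12A, a regulatory light chain of non-muscle myosin, went from 155 and 163 CPM to 535 and 527 CPM (log2 1.74 ± 0.033, adjusted p = 4.2e-40). FEZ2, related to a kinesin adaptor, was at 76.7 and 71.6 CPM in wild type and 302 and 297 CPM in KO5 (log2 2.02 ± 0.044). KO2 was below wild type for ARHGAP29, at 90.1 and 87.1 CPM, and near it for MYL12A, at 139 and 147 CPM. NAV3, which binds microtubule ends, rose by log2 1.78 ± 0.05, and was also above wild type in KO2, at 45.9 and 46.8 CPM against 23.3 and 24.1 CPM. RAB34, a small GTPase of membrane traffic and cilium formation, was at 8.05 and 7.498 CPM in wild type and 24.7 and 23.3 CPM in KO5 and at 0.0691 and 0.114 CPM in KO2.

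The other large rises were the long noncoding RNAs CCAT1 (log2 1.84 ± 0.076) and CASC8 (log2 1.63 ± 0.12), ANKRD20A12P, a pseudogene of a repeated family whose reads may be shared between copies (log2 2.12 ± 0.15), and C1orf106, an adaptor of epithelial junctions (log2 1.91 ± 0.16). CCAT1, which is known for its high level in colon cancer, was at 9.03 and 9.05 CPM in wild type and 31.7 and 33.2 CPM in KO5. GFP libraries held 8.57 and 9.58 CPM of CCAT1 and 8.65 and 8.28 CPM of MFNG, well below KO5 in both.

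**Figure D3:**
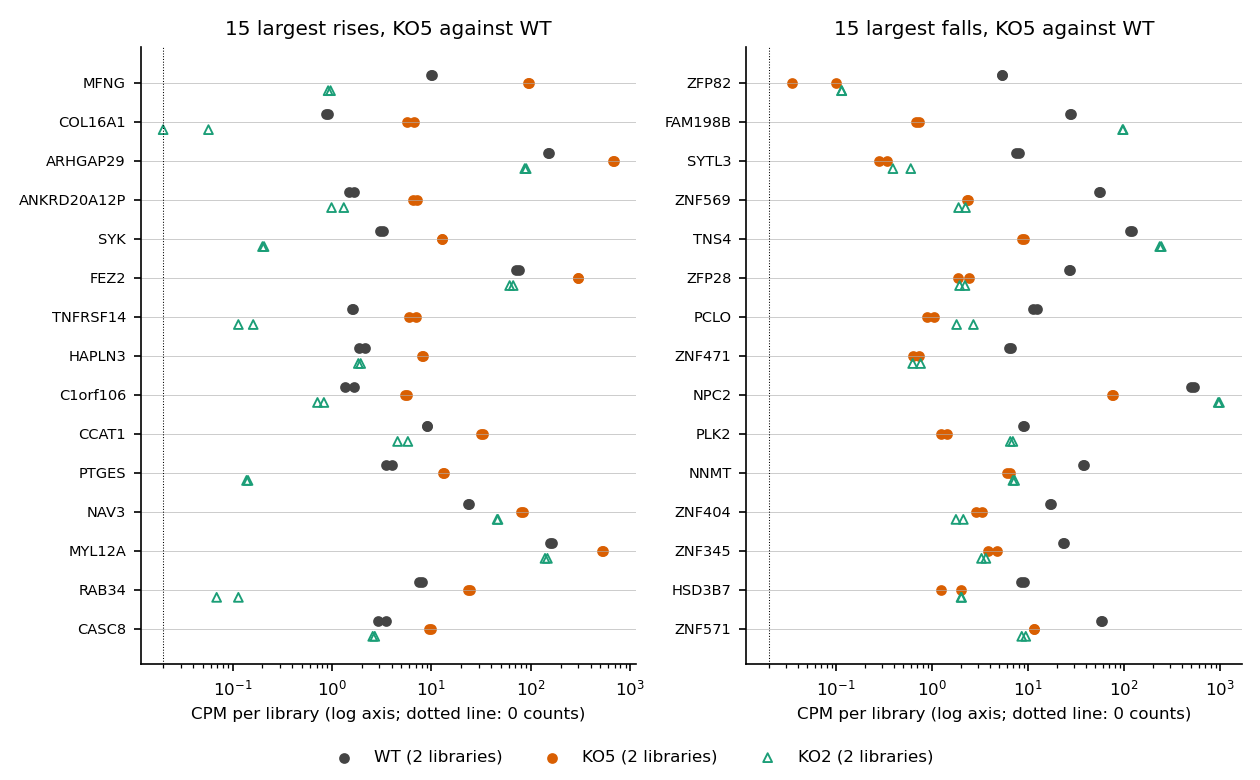
CPM of each library on a log axis for the 15 largest rises (left) and falls (right) in KO5 against wild type, with the 2 libraries each of wild type, KO5 and KO2; the dotted line marks 0 counts. In every row the KO5 points lie apart from the wild-type points, as the rule that picked these genes required. The KO2 triangles lie left of wild type for MFNG, SYK, PTGES and RAB34, near KO5 for ZFP82, ZNF569 and NNMT, and right of wild type for FAM198B, TNS4 and NPC2.

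Falls reached further than rises. NPC2, which carries cholesterol out of lysosomes, was the most abundant of the 15 largest falls, at 531 and 499.98 CPM in wild type and 74.9 and 75.5 CPM in KO5 (log2 -2.78 ± 0.038, adjusted p = 1.6e-46). KO2 held 949.8 and 978 CPM, above wild type, and the difference of KO5 from KO2 was log2 -3.68 ± 0.038. TNS4, a tensin of focal adhesions, was at 119 and 116 CPM in wild type and 8.698 and 9.04 CPM in KO5 (log2 -3.73 ± 0.072, adjusted p = 6.3e-44), and KO2 was again above wild type at 243 and 234 CPM. FAM198B, a Golgi glycoprotein, had 27.3 and 27.8 CPM in wild type and 0.674 and 0.739 CPM in KO5 (log2 -5.28 ± 0.23, adjusted p = 5.0e-36), against 96.1 and 97.4 CPM in KO2. For all 3 genes the order was KO2, wild type, KO5. The rule that picked them required no overlap between KO5 and wild type.

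SYTL3, NNMT, HSD3B7 and PCLO were low in both knockout derivatives. SYTL3, a partner of Rab27 in secretion, was at 7.51 and 7.97 CPM in wild type and 0.337 and 0.281 CPM in KO5 and at 0.392 and 0.600 CPM in KO2 (KO5 against wild type log2 -4.63 ± 0.35, adjusted p = 4.2e-24). NNMT, which methylates nicotinamide, was at 38.2 and 37.7 CPM in wild type and 6.54 and 6.09 CPM in KO5 (log2 -2.58 ± 0.087, adjusted p = 6.1e-32), and at 7.23 and 6.95 CPM in KO2. HSD3B7, an enzyme of bile acid synthesis, went from 9.002 and 8.42 CPM to 1.99 and 1.23 CPM (log2 -2.42 ± 0.17). PCLO, a scaffold of the presynaptic zone, went from 11.3 and 12.4 CPM to 1.05 and 0.880 CPM (log2 -3.62 ± 0.21), with 2.695 and 1.801 CPM in KO2. PLK2, a stress-induced polo-like kinase, was at 8.87 and 9.14 CPM in wild type and 1.42 and 1.23 CPM in KO5 (log2 -2.76 ± 0.18, adjusted p = 6.7e-22), but at 6.93 and 6.52 CPM in KO2, so that here KO5 stood apart.

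The remaining 7 of the 15 largest falls were KRAB-type zinc finger genes, all on chromosome 19. These genes encode DNA-binding proteins known mostly as repressors of transposable elements, and they lie in clusters of related copies. ZNF569 was at 55.97 and 54.5 CPM in wild type and 2.36 and 2.29 CPM in KO5 (log2 -4.57 ± 0.13, adjusted p = 1.5e-38), and at 1.89 and 2.23 CPM in KO2. ZFP82 had 197 and 304 counts in wild type and 3 and 1 in KO5 (log2 -6.20 ± 0.73, adjusted p = 1.4e-22). ZFP28 was at 27.4 and 26.7 CPM in wild type and 1.85 and 2.43 CPM in KO5 (log2 -3.66 ± 0.14), and ZNF571 at 57.3 and 57.98 CPM in wild type and 11.6 and 11.5 CPM in KO5 (log2 -2.32 ± 0.067). ZNF345 fell from 23.6 and 22.99 CPM to 4.79 and 3.83 CPM, ZNF404 from 16.7 and 17.2 CPM to 3.34 and 2.88 CPM, and ZNF471 from 6.31 and 6.63 CPM to 0.641 and 0.739 CPM. All 7 genes were picked by a rule that required no overlap between KO5 and wild type. GFP libraries held 55.8 and 63.2 CPM of ZNF569.

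The promoters of ZFP82 and ZNF569 are shown because these genes had the largest falls of the 7 and lie in one stretch of chromosome 19. Both are RefSeq sequences in build GRCh38.p14, 300 bases on the minus strand, ZFP82 at chr19:36418595-36418894 and ZNF569 at chr19:37467395-37467694. They hold 37 and 17 CG pairs and 73.3% and 58.3% G or C, and neither holds GAAAGT or ACTTTC.
ZFP82: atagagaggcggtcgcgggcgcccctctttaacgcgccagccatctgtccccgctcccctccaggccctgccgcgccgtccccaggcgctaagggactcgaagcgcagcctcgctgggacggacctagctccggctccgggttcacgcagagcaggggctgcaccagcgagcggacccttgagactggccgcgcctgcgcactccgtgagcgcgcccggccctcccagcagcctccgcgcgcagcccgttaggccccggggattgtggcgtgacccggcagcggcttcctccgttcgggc
ZNF569: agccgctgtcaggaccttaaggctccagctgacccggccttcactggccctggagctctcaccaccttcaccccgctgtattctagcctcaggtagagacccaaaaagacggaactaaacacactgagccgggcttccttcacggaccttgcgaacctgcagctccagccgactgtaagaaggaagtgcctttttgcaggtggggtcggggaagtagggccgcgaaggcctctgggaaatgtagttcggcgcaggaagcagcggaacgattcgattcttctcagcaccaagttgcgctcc
The median promoter of all tested genes held 27 CG pairs and 66% G or C.

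Taking genes in their order along the chromosomes, 5 runs of at least 4 neighbouring tested genes changed in 1 direction by at least 1.5-fold, and 3 of them were on chromosome 19, all lower. They held 6 genes from ZNF850 to ZNF420, 5 from ZNF383 to ZNF570 and 7 from ZNF582 to SMIM17. Within them ZNF420 was at 54.6 and 51.9 CPM in wild type and 21.5 and 20.97 CPM in KO5 (log2 -1.32 ± 0.056, adjusted p = 8.1e-27), HKR1 at 90.05 and 91.3 CPM in wild type and 39.04 and 37.7 CPM in KO5 (log2 -1.24 ± 0.046) and ZNF583 at 91.8 and 83.7 CPM in wild type and 24.2 and 23.8 CPM in KO5 (log2 -1.86 ± 0.052). The calls of ZNF829, ZNF570, ZNF582 and SMIM17 in these runs were each lost when 1 library was left out: ZNF829 without KO5 replicate 2 (log2 -2.53), ZNF570 without KO5 replicate 1 (-0.92) or wild-type replicate 2 (-1.35), ZNF582 without KO5 replicate 1 (-0.76) and SMIM17 without wild-type replicate 2 (-0.88).

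The runs from ZNF850 to ZNF420 and from ZNF383 to ZNF570 lay within a wider stretch of lower genes. They took places 489 to 501 in the order of tested genes on chromosome 19. The run from ZNF582 to SMIM17, which holds ZFP28 and ZNF471, lay apart at places 865 to 871 and is not in that stretch. Between LINC00665 and ZNF573, bounds chosen after the values were seen, 31 tested genes followed each other, 29 of them zinc finger genes. Of the 31, 27 were lower in KO5, against 25.9% of all genes tested, and the other 4 did not pass. The median log2 fold change of the 31 was -1.12, against -0.004 over all genes tested. The median for KO2 against wild type, which shares the wild-type libraries, was -1.39. By the direct test, 21 of the 31 were higher in KO5 than in KO2 and 2 were lower, against 26.9% and 28.1% of all genes. With the GC trend removed, 27 were lower, against 17.2% of all genes, and the median was -1.17. Of 914 tested genes on chromosome 19, 44 were at least 2-fold lower, of the 198 (1.54%) among all genes tested. Zinc finger symbols were held by 24 of those 44 and by 3.70% of all genes tested. Over all 212 zinc finger genes of chromosome 19, this stretch included, the median was -0.057, with 45 higher and 70 lower. With the GC trend removed these counts were 30 and 68. The 264 zinc finger genes on other chromosomes had 83 higher, 44 lower and a median of 0.04. Of all genes tested, 25.2% were higher and 25.9% lower, and 23.7% and 17.2% with the trend removed. Chromosome 19 as a whole had a median of -0.170, which was 0.004 with the GC trend removed.

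**Figure D4:**
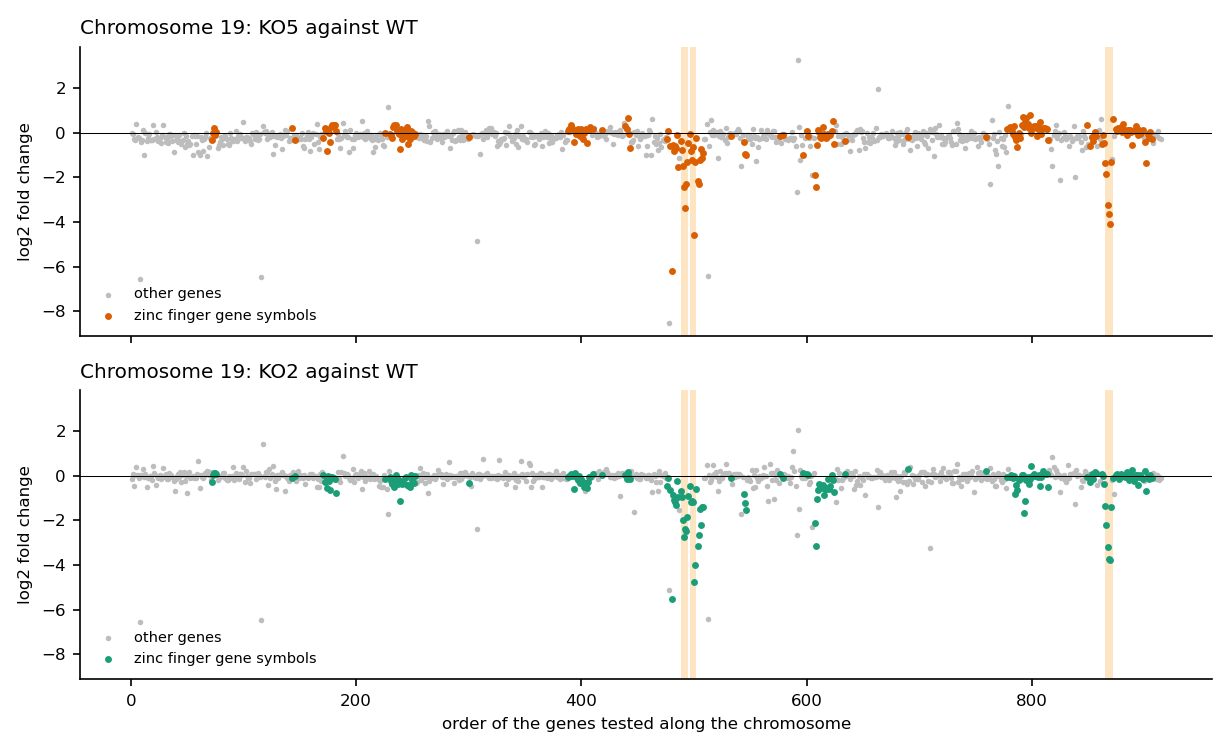
Log2 fold change of the 914 tested genes of chromosome 19 in their order along it, for KO5 (top) and KO2 (bottom) against wild type, with zinc finger gene symbols in colour and the 3 runs of KO5 shaded. The zinc finger genes around and between the first pair of shaded runs lie below 0 in both panels.

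One run of 4 neighbours on chromosome 1 was higher: RRP15, TGFB2, LYPLAL1 and LYPLAL1-AS1. RRP15, a factor of ribosome assembly, was at 191 and 188 CPM in wild type and 343 and 341 CPM in KO5 (log2 0.85 ± 0.033, adjusted p = 7.4e-28), and LYPLAL1, a thioesterase, at 73.3 and 70.4 CPM in wild type and 143 and 142 CPM in KO5 (log2 0.99 ± 0.039, adjusted p = 4.8e-26). LYPLAL1-AS1, its antisense neighbour, was at 9.79 and 8.95 CPM in wild type and 30.9 and 30.9 CPM in KO5 (log2 1.73 ± 0.076). Whether the counting used the strand is not stated, so reads of this pair may be shared. In KO2, LYPLAL1-AS1 was at 4.45 and 3.57 CPM, below wild type, while RRP15 was above it at 275 and 291 CPM. The call of TGFB2, at 0.598 and 0.670 CPM in wild type and 1.01 and 1.27 CPM in KO5, was lost without KO5 replicate 2 (log2 0.65) or wild-type replicate 1 (0.76). The last run, on chromosome 9, held NOXA1, ENTPD8, NSMF and PNPLA7, all lower. NSMF, a synapse-to-nucleus messenger, was at 224 and 243 CPM in wild type and 150.2 and 148 CPM in KO5 (log2 -0.65 ± 0.036), while PNPLA7 lost its call without KO5 replicate 2 (log2 -0.63), and NOXA1 without KO5 replicate 1 (-0.87), KO5 replicate 2 (-0.62) or wild-type replicate 2 (-0.61). With the GC trend removed both calls were lost, NOXA1 at log2 -0.31 (adjusted p = 0.44) and PNPLA7 at -0.48 (adjusted p = 0.053).

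A few further genes are given one by one, without a count over a list. RRM2B, a subunit of ribonucleotide reductase, was at 114 and 113 CPM in wild type and 207 and 207 CPM in KO5 (log2 0.87 ± 0.035, adjusted p = 6.6e-27). MDM2, a ubiquitin ligase, was at 319.8 and 315 CPM in wild type and 507 and 513 CPM in KO5 (log2 0.69 ± 0.033, adjusted p = 4.2e-25). ZMAT3, an RNA-binding protein, rose from 93.96 and 91.7 CPM to 158 and 159 CPM, and CDKN1A, the CDK inhibitor p21, from 71.6 and 72.4 CPM to 106 and 104 CPM (log2 0.54 ± 0.04). For each of these 4 genes both KO5 libraries lay above both wild-type libraries, as was so for 36.7% of all genes. BAX, which opens the outer membrane of mitochondria, went the other way. It was at 52.4 and 54.6 CPM in wild type and 27.3 and 24.3 CPM in KO5 (log2 -1.05 ± 0.053, adjusted p = 2.6e-22), and at 56.7 and 56.3 CPM in KO2.

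Counts of gene list members are to be read beside all genes tested, of which 25.2% were higher and 25.9% lower. With the GC trend removed these shares were 23.7% and 17.2%. Among genes of G1/S transition and DNA replication, more were lower than higher. Of 40 members, 21 were lower (52.5%, against 25.9% of all genes) and 5 higher, with a median of -0.10, and 20 and 4 with the GC trend removed. CDT1, which licenses replication origins, was at 63.4 and 64.2 CPM in wild type and 42.1 and 44.8 CPM in KO5 (log2 -0.56 ± 0.047, adjusted p = 9.9e-15), and E2F1, the transcription factor of the G1/S program, at 47.8 and 48.2 CPM in wild type and 36.2 and 33.6 CPM in KO5 (log2 -0.46 ± 0.05, adjusted p = 3.6e-11). UHRF1, which maintains DNA methylation, and CHAF1B, a histone chaperone, changed by log2 -0.27 ± 0.033 and -0.36 ± 0.046. By the direct test 25 of the 40 were lower in KO5 than in KO2 and 2 higher, against 28.1% and 26.9% of all genes. The 46 genes of G2/M and mitosis did not move together, with 12 higher, 8 lower and a median of 0.003. With the GC trend removed these counts were 8 and 13. The lower count was 4 without KO5 replicate 1, KO5 replicate 2 or wild-type replicate 1. TOP2A, the topoisomerase of mitotic chromosomes, was at 569.96 and 555 CPM in wild type and 437 and 436 CPM in KO5 (log2 -0.37 ± 0.032), and ECT2, which activates RhoA for cytokinesis, at 179 and 171 CPM in wild type and 221 and 233 CPM in KO5 (log2 0.38 ± 0.034).

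Cell cycle regulators went both ways. Of 13 D cyclins, CDK4/6 and CDK inhibitors, 5 were higher (38.5%, all genes 25.2%) and 6 lower (46.2%, all genes 25.9%). CCND1, cyclin D1, was at 385 and 389 CPM in wild type and 510.2 and 497 CPM in KO5 (log2 0.38 ± 0.033), and at 747 and 721 CPM in KO2. CDKN2A, which encodes p16 and ARF, had 17 and 30 counts in wild type and 0 in each KO5 library, at least 9.93-fold lower when 3 counts over the group are taken as the floor. Both KO2 libraries were also at 0. Its counts in wild type are low, so that this describes a rare transcript.

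More cholesterol and fatty acid synthesis genes were lower than higher. Of 30 members tested, 17 were lower (56.7%, against 25.9% of all genes) and 2 higher, with a median of -0.17, and with the GC trend removed 18 and 4. Neither higher call was made without KO5 replicate 2 or wild-type replicate 2. INSIG1, which holds back the SREBP factors in the endoplasmic reticulum, was at 111 and 106 CPM in wild type and 54.2 and 49.5 CPM in KO5 (log2 -1.06 ± 0.051, adjusted p = 1.5e-15). SCD, the desaturase that makes oleate, was at 863 and 820.1 CPM in wild type and 629.9 and 588 CPM in KO5 (log2 -0.47 ± 0.032, adjusted p = 5.3e-16). DHCR7, the last enzyme of cholesterol synthesis, went from 97.8 and 99.03 CPM to 72.6 and 69.1 CPM, and SREBF1, which encodes an SREBP factor, from 137 and 141 CPM to 95.3 and 92.2 CPM. By the direct test 16 of the 30 were lower in KO5 than in KO2 and 3 higher (all genes 28.1% and 26.9%).

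The amino acid stress genes that ATF4 targets were also lower in larger number. Of 21 members tested, 13 were lower (61.9%, all genes 25.9%) and 1 higher (4.76%, all genes 25.2%), with a median of -0.21. With the GC trend removed 10 were lower and 3 higher, against 17.2% and 23.7% of all genes. PHGDH, which opens serine synthesis, was at 157 and 156 CPM in wild type and 102 and 101 CPM in KO5 (log2 -0.62 ± 0.037, adjusted p = 2.6e-21). ASNS, asparagine synthetase, was at 159 and 157 CPM in wild type and 111 and 111 CPM in KO5 (log2 -0.51 ± 0.037, adjusted p = 2.3e-17). PYCR1 of proline synthesis changed by log2 -0.38 ± 0.035, and SHMT2 of mitochondrial one-carbon metabolism by -0.28 ± 0.033. In contrast the 20 unfolded protein response genes were split, with 6 higher (30%, all genes 25.2%), 7 lower (35%, all genes 25.9%) and a median of -0.009.

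Ribosome biogenesis genes were more often higher than lower, with 17 of 29 (58.6%, against 25.2% of all genes) higher, 4 lower and a median of 0.12. With the GC trend removed 21 were higher and 2 lower. The median of these genes for KO2 against wild type, which shares the wild-type libraries, was also 0.12. Tested directly, 12 of the 29 were higher in KO5 than in KO2 and 8 lower, against 26.9% and 28.1% of all genes. Beside RRP15, NOP58 of the box C/D particles was at 243 and 227 CPM in wild type and 287 and 296 CPM in KO5 (log2 0.31 ± 0.034, adjusted p = 1.6e-11), and UTP15 and WDR12 rose by 0.35 ± 0.039 and 0.34 ± 0.039 on the log2 scale. The 67 cytoplasmic ribosomal protein genes, whose reads can be shared with pseudogenes, had 17 higher, 11 lower and a median of 0.039. These shares were 25.4% and 16.4%, against 25.2% and 25.9% of all genes. With the GC trend removed 26 were higher and 4 lower, and the lower count was 7 without KO5 replicate 2. MYC, which is known to drive genes of both groups, was at 345 and 348 CPM in wild type and 392 and 379.8 CPM in KO5 (log2 0.16 ± 0.033, adjusted p = 2.4e-05). Its part in these counts was not tested. Replication-dependent histone genes had 6 of 16 higher (37.5%, all genes 25.2%), with a median of 0.31, and the other 10 did not pass. HIST1H1C was at 28.6 and 28.4 CPM in wild type and 40.3 and 39.3 CPM in KO5 (log2 0.48 ± 0.053) and HIST1H2BK at 14.7 and 14.7 CPM in wild type and 22.96 and 19.7 CPM in KO5 (log2 0.54 ± 0.068). Their reads are uncertain, since most histone transcripts lack a poly(A) tail and have near-identical copies.

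Interferon-stimulated genes were mixed. Of 29 members tested, 12 were higher (41.4%, all genes 25.2%) and 6 lower (20.7%, all genes 25.9%), with a median of 0.15. With the GC trend removed 13 were higher and 4 lower, against 23.7% and 17.2% of all genes. SAMD9, an antiviral factor, was at 6.26 and 5.35 CPM in wild type and 14.1 and 14.3 CPM in KO5 (log2 1.31 ± 0.094, adjusted p = 7.4e-17). TRIM22, with 24 and 50 counts in wild type and 77 and 85 in KO5, changed by log2 1.82 ± 0.22, and PARP14 by 0.31 ± 0.039. SAMD9L, the neighbour and relative of SAMD9, had 12 and 15 counts in wild type and 0 and 2 in KO5, 8.56 times fewer per read (95% interval 2.15 to 74.3), and its call was lost without KO5 replicate 1 (log2 -1.98). By the direct test 17 of the 29 were higher in KO5 than in KO2 and 3 lower (all genes 26.9% and 28.1%). Among RNA sensing genes and interferon regulatory factors, 7 of 16 were higher (43.75%, all genes 25.2%) and 5 lower (31.25%, all genes 25.9%). Among those higher were TLR3 at 7.59 and 7.67 CPM in wild type and 12.3 and 11.1 CPM in KO5 (log2 0.62 ± 0.099) and DDX58, which encodes RIG-I, at 5.11 and 5.88 CPM in wild type and 8.496 and 8.303 CPM in KO5 (log2 0.60 ± 0.11). The lower count was 2 without KO5 replicate 2, without wild-type replicate 2 or with the GC trend removed.

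Collagen and laminin chains were mostly lower, apart from COL16A1. Of 20 members tested, 14 were lower (70%, all genes 25.9%) and 2 higher (10%, all genes 25.2%), with a median of -0.44. With the GC trend removed 8 were lower and 2 higher, against 17.2% and 23.7% of all genes. The lower count was 9 without KO5 replicate 2 or wild-type replicate 2, and the higher count was 1 without any 1 of the 4 libraries. LAMB3, a chain of laminin-332, was at 3.18 and 3.37 CPM in wild type and 0.843 and 0.880 CPM in KO5 (log2 -1.93 ± 0.23, adjusted p = 2.6e-11), and at 8.06 and 7.86 CPM in KO2. LAMB1 was at 224 and 220.3 CPM in wild type and 172 and 172 CPM in KO5 (log2 -0.37 ± 0.035), COL6A1 at 136 and 143 CPM in wild type and 104 and 98.5 CPM in KO5 (log2 -0.47 ± 0.038), and LAMB2 changed by log2 -0.47 ± 0.041. The median transcript GC content of this list was 60.7%, against 48.8% over all genes tested, and of the 11 fibroblast markers PDGFRB, POSTN and ACTA2 were higher and COL1A1 lower, with summed levels as given above. The call of ACTA2 was lost without KO5 replicate 1 (log2 0.61) or KO5 replicate 2 (log2 0.66) or wild-type replicate 1 (log2 0.44), and that of COL1A1 without KO5 replicate 2 (log2 -0.25) or wild-type replicate 2 (-0.11). COL1A1 also lost its call with the GC trend removed, at log2 -0.095 (adjusted p = 0.52). The part of base composition and of these markers in the result was not tested.

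**Figure D5:**
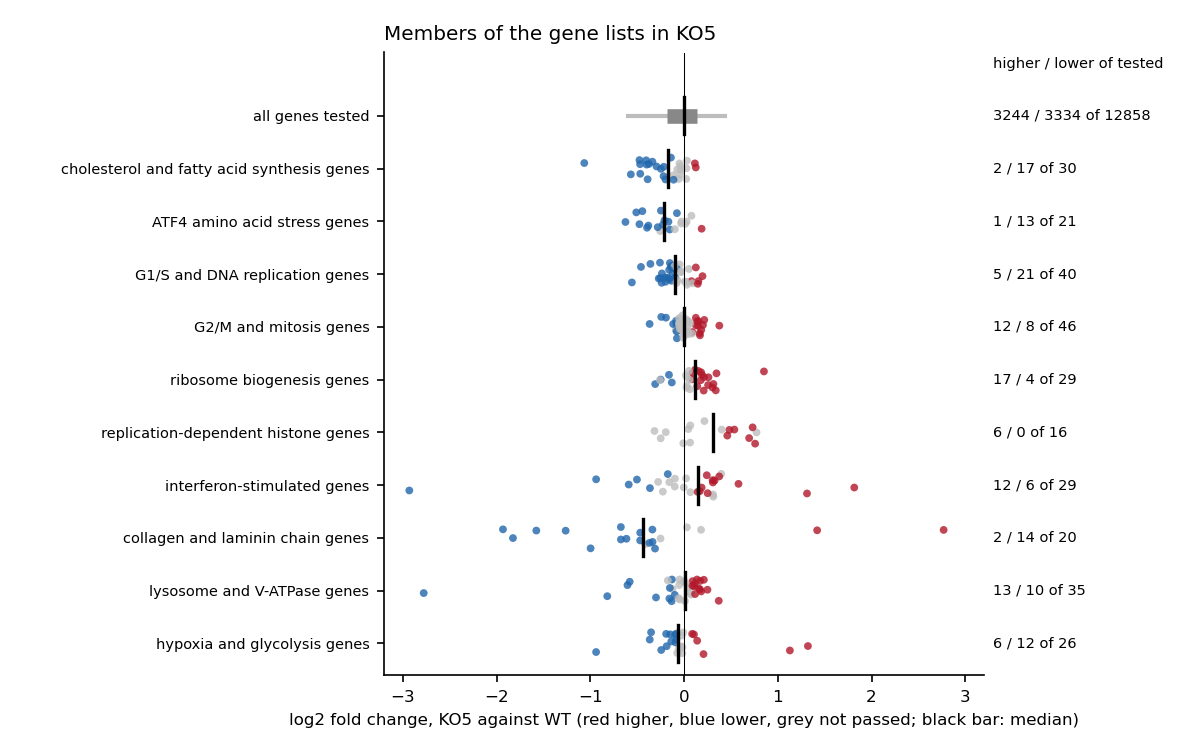
Each point is a tested member of a gene list, placed by its log2 fold change in KO5 against wild type and coloured by call; black bars mark medians, and the numbers at the right give members higher, lower and tested. For all genes tested the thick bar spans the middle 50% and the thin line the middle 90%. The medians of the cholesterol, ATF4 and collagen lists lie left of 0, at -0.17, -0.21 and -0.44, and that of the ribosome biogenesis list right of it, at 0.12.

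Notch genes other than MFNG did not move together. Of 17 tested, MFNG included, 5 were higher (29.4%) and 4 lower (23.5%), near the 25.2% and 25.9% of all genes. With the GC trend removed 8 were higher and 2 lower, against 23.7% and 17.2% of all genes. MAML2, a coactivator of Notch, was at 2.04 and 1.59 CPM in wild type and 3.51 and 4.12 CPM in KO5 (log2 1.10 ± 0.17), and JAG1, a ligand, at 349 and 347 CPM in wild type and 424 and 417 CPM in KO5 (log2 0.27 ± 0.033). Among hypoxia and glycolysis genes, 6 of 26 were higher (23.1%, all genes 25.2%) and 12 lower (46.2%, all genes 25.9%). Their log2 fold changes ran from -0.94 to 1.32 with a median of -0.064, and SLC2A3 and ADM, given below, are among the 6 higher. With the GC trend removed 8 were higher and 8 lower, against 23.7% and 17.2% of all genes. SLC2A3, a glucose transporter, was at 521 and 539.9 CPM in wild type and 1347 and 1305 CPM in KO5 (log2 1.32 ± 0.032, adjusted p = 4.3e-36). Its reads may be shared with the near-identical SLC2A14. ADM, adrenomedullin, was at 26.03 and 25.9 CPM in wild type and 58.2 and 55.4 CPM in KO5 (log2 1.13 ± 0.051, adjusted p = 1.4e-24).

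NF-kB factors and feedback genes had 9 of 16 lower (56.25%, all genes 25.9%) and 2 higher (12.5%, all genes 25.2%). With the GC trend removed 3 were lower and 1 higher, against 17.2% and 23.7% of all genes. The higher count was also 1 without KO5 replicate 2. NFKB2 was lower at 83.5 and 86.5 CPM in wild type and 60.9 and 58.5 CPM in KO5 (log2 -0.51 ± 0.043) and NFKB1 higher at 62.7 and 59.2 CPM in wild type and 75.9 and 78.5 CPM in KO5 (log2 0.34 ± 0.043), both kept with the trend removed, at -0.27 and 0.36. Of 7 epithelial genes tested, 4 were higher (57.1%, all genes 25.2%) and 1 lower (14.3%, all genes 25.9%). KRT8 was at 647 and 652 CPM in wild type and 809 and 757 CPM in KO5 (log2 0.27 ± 0.032) and KRT18 at 309.6 and 319 CPM in wild type and 381 and 363 CPM in KO5 (log2 0.24 ± 0.033). The lower call of that list was lost without KO5 replicate 1 or wild-type replicate 1. Among mesenchymal genes ZEB1 was higher (log2 0.64 ± 0.06), and SNAI2, with 32 and 43 counts in wild type and 4 and 3 in KO5, was lower (log2 -2.70 ± 0.59) and was at 0.0921 and 0.172 CPM in KO2.

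Genes that PRDM1 is known to repress in lymphocytes went both ways. Of 18 listed, 9 had enough reads, and of these 3 were higher (33.3%, all genes 25.2%) and 4 lower (44.4%, all genes 25.9%). PIM1, a kinase, was at 113 and 113 CPM in wild type and 64.2 and 58.5 CPM in KO5 (log2 -0.88 ± 0.042, adjusted p = 1.7e-23), and MYC rose as given above. SPIB, a B cell factor, had 14 and 27 counts in wild type and 2 and 3 in KO5 (log2 -2.29 ± 0.69). In the PRDM family, 3 of 12 were higher (25%, all genes 25.2%) and 1 lower (8.33%, all genes 25.9%). MECOM led the rises at 24.5 and 22.4 CPM in wild type and 33.5 and 31.3 CPM in KO5 (log2 0.48 ± 0.058), and PRDM16 was lower at 32.1 and 33.6 CPM in wild type and 26.8 and 27.2 CPM in KO5 (log2 -0.29 ± 0.056).

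KO5 and KO2 were compared with each other to test where the knockout derivatives differ. Of the 12858 genes, 7062 differed (54.9%), with 3453 (26.9%) higher and 3609 (28.1%) lower in KO5. Differences of at least 2-fold were found in 264 (2.05%) higher and 177 (1.38%) lower. The genes that differed most among those of at least 5 CPM were TFPI, RAB34, COL16A1 and MFNG, all higher in KO5. TFPI, an inhibitor of coagulation, had 152 and 202 counts in KO5 and 0 in each KO2 library, at least 160-fold higher with 3 counts over the group as the floor, and 1.99 and 1.96 CPM in wild type. Lower in KO5 were CSPG4, a surface proteoglycan with 3 counts in KO5 against 648 in KO2 (a ratio of 0.00629, 95% interval 0.00129 to 0.0185), FAM198B, GFPT2 and TNS4. GFPT2, of hexosamine synthesis, was at 0.101 and 0.0352 CPM in KO5, 6.73 and 6.89 CPM in KO2 and 3.07 and 2.82 CPM in wild type. Of the zinc finger genes of chromosome 19 named above, ZNF569 differed by log2 0.19 ± 0.18 (adjusted p = 0.39) and ZFP28 by 0.055 ± 0.18 (adjusted p = 0.81), neither past the threshold, which does not show that their levels were equal. IGF2BP3, an oncofetal RNA-binding protein, was above wild type in both, at 379 and 387 CPM in KO5, 319.9 and 329 CPM in KO2 and 157 and 149.6 CPM in wild type (KO5 against wild type log2 1.32 ± 0.034, adjusted p = 1.0e-35).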

How the data were processed

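Polyadenylated RNA was sequenced after library preparation with a stranded kit, per the labels' protocols. TopHat, Bowtie2 and Cufflinks were used with build hg19, per the submitters' processing notes; the read counter and its use of strand are not given in the sources used here. The authors deposited whole-number counts per gene symbol for each library, not normalized, with 26366 entries per file. The 2 entries without a gene, reads with no feature (9.75% to 10.8% in the KO5 and wild-type libraries) and ambiguous reads (1.66% to 1.71%), were left out, and the deposited comparison tables were not used here.

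The fit used edgeR 4.0.16 under R 4.3.3: filterByExpr over 6 groups, TMM scaling, and a robust quasi-likelihood fit with a mean per group over all 12 libraries, whose common biological coefficient of variation was 2.18%. Errors are Wald errors with the quasi-dispersion at 1 or more. On simulated counts for this comparison, 100% of genes changed at least 2-fold were recovered among 12858, and 12 unchanged genes passed. Every simulated gene had the same spread, and the changed ones were drawn from the more abundant genes. Recovery of genes with few reads or a larger spread was therefore not tested. A count of 0 allows up to 0.0529 to 0.106 CPM in these libraries, taking 3 counts. GC content and gene order came from GENCODE 29 transcripts, matched by symbol, with the longest transcript of each gene, protein-coding ones first. The GC trend was a loess curve (span 0.3) per library, used as an offset. Intervals of shares and ratios are at 95% and cover counting error only.

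Genes named were the 15 largest rises and falls with at least 5 CPM in the higher group and no overlap, up to 4 members of each of 37 lists with the smallest p and any member changed 2-fold, runs of 4 neighbours at 1.5-fold, and the 4 largest differences from KO2 in each direction; the text gives part of these genes and lists, and the others are not reported here. The comparison, members and lists were chosen with earlier results of these data known. Replicate numbers did not pair libraries (correlation of deviations 0.018). Alternatives were DESeq2 1.42.0 size factors and its Wald test, no filter, only the compared groups, a replicate block, each library left out, glmTreat at 1.5-fold and the GC offset.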

Additional observations from a re-analysis of the deposited data

Results flagged for a closer look

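By edgeR's quasi-likelihood test of KO5 against KO2, 7062 genes passed, and 60.5% of these differed by less than 1.25-fold. With the GC trend removed 6376 passed. The 4 largest differences in each direction among genes of at least 5 CPM are given here as log2 differences ± standard error or as counts. TFPI (fitted value 10.56) had 354 counts in KO5 and 0 in KO2, so the fitted value depends on the prior count and is no bound. RAB34 differed by 8.01 ± 0.55 (adjusted p = 1.8e-35), COL16A1 by 7.70 ± 1.1 (adjusted p = 3.2e-23), with 357 counts in KO5 and 2 in KO2, and MFNG by 6.66 ± 0.17 (adjusted p = 5.6e-47). In KO5 these 4 genes were above wild type and in KO2 below it. In the other direction CSPG4 (fitted value -7.21) had 3 counts in KO5 and 648 in KO2. FAM198B differed by -7.09 ± 0.23 (adjusted p = 5.1e-46), GFPT2 by -6.54 ± 0.73 (adjusted p = 7.0e-24) and TNS4 by -4.75 ± 0.071 (adjusted p = 7.9e-50), each below wild type in KO5 and above it in KO2.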

How the results depend on the processing

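Counts of genes that passed in KO5 against wild type stayed within 1.5 times under the DESeq2 Wald test (5153 in all), a fit of only the compared groups, size factors of DESeq2 and no filter. Leaving out 1 library at a time gave 4958 to 5982 genes in all, 2446 to 2932 higher and 2512 to 3050 lower. Requiring a change beyond 1.5-fold (glmTreat) left 280 genes, 114 higher and 166 lower, and of those at least 2-fold 81 higher and 125 lower; against KO2 it left 441, with 268 higher, 173 lower and 115 at least 2-fold lower. With the GC trend removed 2218 genes were lower. The replicate block gave 6524 genes, 3211 higher and 3313 lower, and 7013 that differ from KO2; libraries share only a number, so this is no paired result.

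The GC correlation was -0.599 in genes above the median level, -0.448 below it and -0.413 between the first libraries of each group. Leaving out 1 library gave -0.462 to -0.537. With the trend removed it was -0.0157, and -0.0158 with the replicate block as well, and the Pearson value was -0.284. The median of chromosome 19 was 0.0043 with the trend removed and 0.0038 with the block as well. Of 2328 alternative values for 194 gene results, 2147 kept direction and call, 177 lost the call and 4 changed sign, all with the GC trend removed: RPL8 to 0.090 (0.090 with the block) and TGFB1 to 0.0010 (0.00050). Among these results 115 genes lost their call under at least 1 alternative, most of them under glmTreat, which requires a change beyond 1.5-fold. The causes were not tested. Depth limits the genes with few reads, and 42 of the 198 falls of at least 2-fold have a group at 3 counts or fewer.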

Other observations

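Some genes below 5 CPM, named after their values were seen, were present in one group and at 0 in the other. RASSF9, an endosomal protein of epithelia, had 37 and 26 counts in KO5 and 0 in wild type, KO2 and GFP, at least 33.1-fold above wild type with 3 counts over the group as the floor. SEMA3D, a secreted axon guidance factor, had 81 and 130 counts in wild type and 0 in both KO5 libraries, at least 44.6-fold lower, with 0 and 2 in KO2. LCP1, the actin bundler L-plastin, had 71 and 115 counts in wild type and 0 in KO5, at least 39.3-fold lower, with 6 and 4 in KO2. TRIM38, a regulator of innate immune signalling, had 36 and 52 counts in wild type, 0 in KO5 (at least 18.6-fold lower) and 2 and 2 in KO2. GFP libraries held 53 and 70 counts of SEMA3D, 37 and 44 of LCP1 and 35 and 40 of TRIM38.

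Integrins, lysosomal genes and growth factor feedback genes moved in both directions in KO5. ITGAV, the alpha subunit of fibronectin and vitronectin receptors, was at 84.7 and 85.8 CPM in wild type and 117 and 119 CPM in KO5 (log2 0.47 ± 0.038) and ITGB1 at 619.6 and 606 CPM in wild type and 725 and 744 CPM in KO5 (log2 0.26 ± 0.032), while ITGB2, a leukocyte integrin, had 92 counts in wild type and 1 in KO5 (ratio 0.0171, 95% interval 0.000430 to 0.0980); its reads may be shared with the overlapping ITGB2-AS1. In all, 5 of 11 integrin subunits were higher (45.5%, all genes 25.2%) and 3 lower (27.3%, all genes 25.9%). Fewer integrin subunits were lower without KO5 replicate 2 or wild-type replicate 2. With the GC trend removed 6 were higher and 1 lower, against 23.7% and 17.2% of all genes. Of 35 lysosome and V-ATPase genes, 13 were higher (37.1%, all genes 25.2%) and 10 lower (28.6%, all genes 25.9%). GAA, the lysosomal glucosidase, was at 57.4 and 62.7 CPM in wild type and 38.9 and 40.5 CPM in KO5 (log2 -0.60 ± 0.048) and CTSC, a cathepsin, at 155 and 150.3 CPM in wild type and 196 and 198 CPM in KO5 (log2 0.37 ± 0.035). Fewer lysosome and V-ATPase genes were lower without KO5 replicate 2. With the GC trend removed 14 were higher and 4 lower, against 23.7% and 17.2% of all genes. Of 17 ERK feedback genes, 5 were higher (29.4%, all genes 25.2%) and 7 lower (41.2%, all genes 25.9%). Among those lower were PHLDA1 at 252 and 263 CPM in wild type and 166 and 163 CPM in KO5 (log2 -0.65 ± 0.035) and EPHA2 at 270.01 and 277 CPM in wild type and 196 and 185 CPM in KO5 (log2 -0.52 ± 0.034).

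HMGA1, a chromatin protein, rose from 439 and 441 CPM to 571 and 556 CPM (log2 0.36 ± 0.032), and H19, an imprinted noncoding RNA, was lower at 6.26 and 5.91 CPM in wild type and 2.83 and 2.15 CPM in KO5 (log2 -1.28 ± 0.16). NOTUM, an extracellular Wnt inhibitor, was at 15.2 and 15.98 CPM in wild type and 8.46 and 7.46 CPM in KO5 (log2 -0.97 ± 0.087, adjusted p = 1.2e-13).

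The counts of other gene lists are given beside the 25.2% higher and 25.9% lower of all genes. Those with the GC trend removed compare with 23.7% and 17.2% of all genes. Of 33 double-strand break repair and Fanconi genes, 12 were higher and 6 lower. Immediate early genes had 7 of 22 higher and 4 lower, with fewer lower without wild-type replicate 2. With the GC trend removed 10 of the 22 were higher and 1 lower. Metalloproteinases, serpins and the plasminogen system had 7 of 22 higher and 7 lower, with 3 lower without KO5 replicate 1 and 4 without KO5 replicate 2 or wild-type replicate 2. Antigen presentation genes had 3 of 21 higher and 6 lower, with 2 lower without KO5 replicate 2, 3 lower without wild-type replicate 2, and 9 higher and 2 lower with the GC trend removed. TGF-beta and BMP targets had 5 of 17 higher and 7 lower, with 3 higher without KO5 replicate 2, 4 lower without wild-type replicate 2 and 3 lower with the GC trend removed. MYC and its network had 4 of 11 higher and 5 lower, and 5 higher and 2 lower with the GC trend removed. Wnt targets had 2 of 11 higher and 4 lower, with 1 higher without KO5 replicate 2 or wild-type replicate 1, and 1 each with the GC trend removed. Intestinal stem cell genes had 3 of 8 higher and 2 lower, and oncofetal genes 4 of 5 higher and 1 lower. Few members of the last pair of lists had enough reads: 2 of 15 intestinal differentiation markers, of which 1 was lower and lost its call without KO5 replicate 1 or wild-type replicate 1, and 1 of 28 cancer-testis antigen genes, which did not pass.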
